A study of Mus musculus with 6 samples.

Results

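The genes examined were 10 genes of histamine biology: Hdc, Hnmt, Hrh1, Hrh2, Hrh3, Hrh4, Aoc1, Slc18a2, Slc22a2 and Maob. Their members are the probe sets whose single gene symbol in the platform annotation is among these names, which gave 12 probe sets of 45101 on the array for all 10 of the 18193 genes named there, with 2 each for Hdc and Hrh1 and 1 for each other gene. The cells were myeloid cells from femur and tibia marrow of mice that carry the Hdc-GFP reporter (C57BL/6 background), in which green fluorescent protein follows the activity of Hdc. All were sorted as GFP-positive or GFP-high and CD11b-positive, and were divided by the Gr1 antigen into Gr1lo (3 arrays) and Gr1hi (3 arrays). No agent is named in the labels, nor is the age of the mice, the construction of the reporter or whether the replicates came from separate animals. The p-values therefore measure only the spread between these samples. Since the reporter of Hdc was a sorting criterion in both groups, neither group stands for cells without Hdc activity, and any comparison is between 2 populations already chosen for it.

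Histamine is made from the amino acid histidine by histidine decarboxylase, the product of Hdc, a single step that needs vitamin B6 as a cofactor. The vesicular monoamine transporter encoded by Slc18a2 loads it into granules, and it is broken down either by methylation in the cytosol (Hnmt, followed by Maob) or by oxidation outside the cell (Aoc1, the diamine oxidase), while the organic cation carrier encoded by Slc22a2 can move it across membranes. It acts through 4 G protein-coupled receptors: H1 couples mainly to Gq, H2 to Gs and cyclic AMP, and H3 and H4 to Gi. Basophils and mast cells are the classic blood-lineage sources of histamine, and in marrow Hdc is also active in immature myeloid cells.

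The promoters of the 3 genes whose transcripts were higher in Gr1hi are shown because all 3 were called higher there. Each is the 250 bases before the gene start, 5′ to 3′, from RefSeq on assembly GRCm38.p6, which is used for sequence only. Of the 10 genes, 8 had an entry in the promoter table. Capitals mark matches, on either strand, to any of 5 motifs: TTNCNNAA for the C/EBP factors, GAGGAA for the factor PU.1, AGATAA for the GATA factors, GGGCGG for the GC box and TGANTCA for the factor AP-1. Hdc lies at chr2:126618679-126618928 (minus strand), Hnmt at chr2:24049380-24049629 (minus strand) and Hrh2 at chr13:54191883-54192132 (plus strand, the first of 2 listed starts).
Hdc: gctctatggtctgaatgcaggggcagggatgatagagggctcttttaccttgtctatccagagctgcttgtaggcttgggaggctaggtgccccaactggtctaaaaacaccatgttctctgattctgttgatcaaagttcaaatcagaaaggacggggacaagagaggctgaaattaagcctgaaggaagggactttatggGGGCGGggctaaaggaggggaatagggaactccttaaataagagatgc
Hnmt: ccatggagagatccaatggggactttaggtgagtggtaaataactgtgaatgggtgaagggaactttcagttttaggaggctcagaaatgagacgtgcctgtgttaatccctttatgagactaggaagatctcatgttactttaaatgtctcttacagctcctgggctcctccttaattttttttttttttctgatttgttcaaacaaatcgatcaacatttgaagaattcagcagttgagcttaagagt
Hrh2: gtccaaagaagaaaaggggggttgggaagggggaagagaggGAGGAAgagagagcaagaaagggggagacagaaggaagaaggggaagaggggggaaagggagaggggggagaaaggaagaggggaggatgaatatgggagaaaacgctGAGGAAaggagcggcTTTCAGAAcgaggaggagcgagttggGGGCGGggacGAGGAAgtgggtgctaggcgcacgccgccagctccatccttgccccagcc
The Hdc window held 1 GC box, 48 bases before the start. The Hrh2 window held 1 GC box at 60 bases, 1 C/EBP match at 86 bases and 3 PU.1 matches at 50, 101 and 209 bases before the start. The Hnmt window held none of the 5 motifs, and no matches of different motifs overlapped in these windows. Among 32851 windows of the same length, 32.7% held the GC box, 36.9% the C/EBP letters, 23.3% the PU.1 letters, 9.99% the GATA letters and 6.75% the AP-1 letters. A match is a run of letters only, and these arrays measured no binding.

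Values are log2 probe set values as deposited, and every difference is Gr1hi minus Gr1lo on that scale. The table gives no detection calls, so a level was read against background in 2 ways: 3 control probe sets of a transcript absent from the sample (Trpn) reached at most 2.77, and 26 genes of tissues outside blood lay between 1.69 and 4.22, with 95% of their values below 3.43. Arrays correlated at 0.990 to 0.995 within groups and at 0.871 to 0.911 between them. Of 11 neutrophil lineage markers, S100a8, S100a9, Camp, Ngp, Ltf and Lcn2 had group means of at least 14.16. Elane and Mpo were lower in Gr1hi than in Gr1lo, with Gr1hi means of 4.62 and 9.93. All 6 samples are labelled female, yet the Y-linked gene Eif2s3y read 9.02 or more on every array, and Xist read 10.95 and 10.14 on the replicate 3 arrays of Gr1lo and Gr1hi but at most 2.43 on the other 4. The description of Gr1lo replicate 3 can also be read as GFP-negative, whereas its title puts it in the sorted GFP group. The members' results and the counts of the gene lists are therefore also given without both replicate 3 arrays, for the lists as an alternative chosen after seeing the data.

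The 12 probe sets divided evenly at the filter for low values. Hdc (2 probe sets), Hnmt, Hrh2, Slc18a2 and 1 of the 2 Hrh1 probe sets passed this filter, at least 3 of 6 arrays above that array's 40th percentile (2.57 to 2.68), on 6 of 6 arrays each. The other 6 probe sets, for Hrh1, Hrh3, Hrh4, Aoc1, Slc22a2 and Maob, exceeded that level on no array, and none of them reached the highest Trpn value. Of the 6 that passed, 4 were called higher in Gr1hi (3 genes: Hdc, Hnmt and Hrh2) and 0 lower, by limma at a Benjamini-Hochberg adjusted p under 0.05 over all 22695 probe sets that passed. In the same fit 26.2% of these probe sets were called higher and 30.0% lower, 56.2% in all. With so large a share of the array called, 4 of 6 is a description of these members. In sorted bulk samples, more cells with a transcript and more transcript per cell cannot be told apart.

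**Figure D1:**
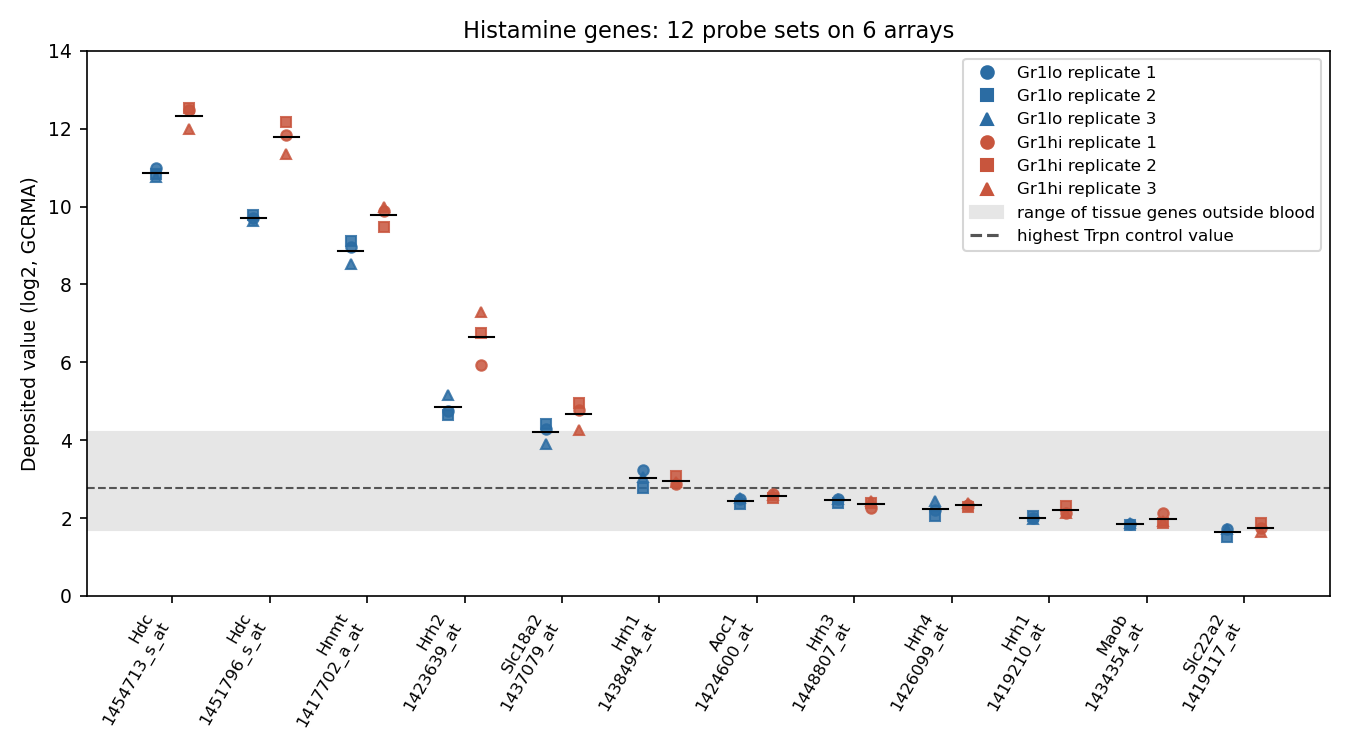
Deposited log2 value (vertical axis) of each of the 12 probe sets on each array; blue marks Gr1lo, red Gr1hi, the marker shape is the replicate number, and the black bar is the group mean (n = 3). The grey band is the range of 26 tissue genes outside blood (1.69 to 4.22) and the dashed line the highest Trpn value (2.77); Hdc, Hnmt and Hrh2 lie above the band on all 6 arrays, and 6 probe sets lie below the dashed line on all 6.

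Hdc, the enzyme that makes histamine, was abundant in both groups and higher in Gr1hi on both of its probe sets. Probe set 1454713_s_at read 10.99, 10.85 and 10.75 in the Gr1lo arrays against 12.49, 12.52 and 11.99 in the Gr1hi arrays, given here and below in the order of the replicate numbers 1, 2 and 3. The groups were apart by 1.00 between their nearest arrays, and all Gr1hi values lay above the 98th percentile of their array. The mean rose from 10.86 ± 0.12 to 12.33 ± 0.30 (SD, n = 3 per group), a difference of 1.47 (SE 0.14, limma adjusted p = 1.69e-05), or 2.77-fold with a 95% interval of 2.22 to 3.45. Probe set 1451796_s_at read 9.71, 9.78 and 9.64 in Gr1lo and 11.82, 12.18 and 11.36 in Gr1hi, again without overlap. It differed by 2.08 (SE 0.18, limma adjusted p = 8.54e-06), or 4.22-fold with an interval of 3.19 to 5.58. The suffix of both names marks probe sets whose probes match more than 1 transcript. The 2 intervals overlap, but each fold change lies outside the interval of the other. Both probe sets were read on the same arrays, so overlap of the intervals does not show that they agree. The size of the rise thus depended on the probe set, and the gap between them was not tested. Gr1hi replicate 3 was the lowest of its group on both probe sets, and Gr1lo replicate 3 likewise. Without both replicate 3 arrays the differences were 1.59 for 1454713_s_at and 2.26 for 1451796_s_at (limma adjusted p = 5.64e-05 and 5.36e-05). Larger rises than that of 1451796_s_at were seen in 3.71% of the probe sets that passed, and than that of 1454713_s_at in 6.84%.

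Hnmt, the methyltransferase that inactivates histamine inside cells, also rose. It read 8.96, 9.10 and 8.52 in Gr1lo and 9.89, 9.48 and 9.99 in Gr1hi. The groups did not overlap, but their nearest arrays, Gr1lo replicate 2 and Gr1hi replicate 2, were only 0.38 apart. The difference was 0.92 (SE 0.19, limma adjusted p = 0.0021), which is 1.90-fold with an interval of 1.42 to 2.54. It was 0.65 (limma adjusted p = 0.025) without both replicate 3 arrays, and a test against a 1.5-fold change did not call it (adjusted p = 0.16), with adjusted p from 9.83e-05 to 0.16 over all alternatives.

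**Figure D2:**
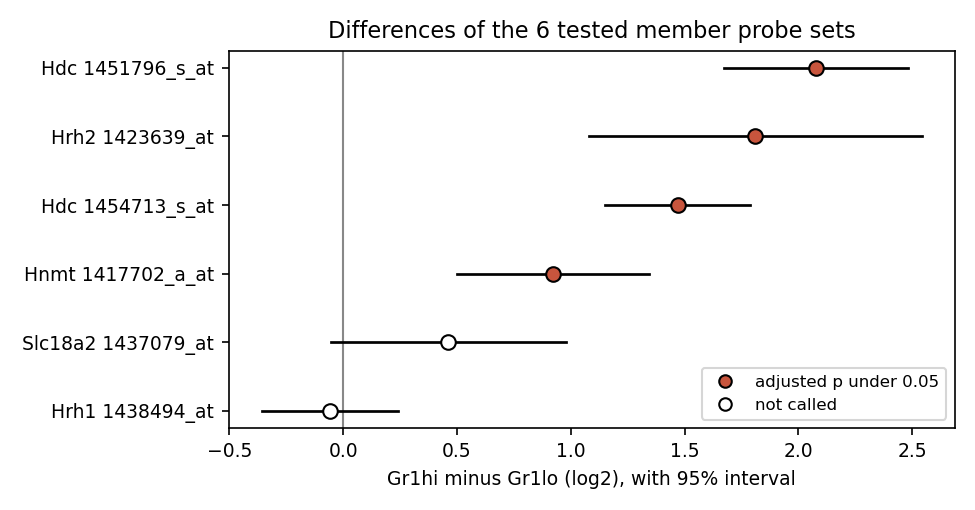
Difference Gr1hi minus Gr1lo (horizontal axis, log2) of the 6 member probe sets that passed the filter, each with its 95% interval from the limma fit (3 arrays per group); red points passed an adjusted p of 0.05 and white points did not. The intervals of Hdc, Hrh2 and Hnmt lie above 0, and those of Slc18a2 (-0.05 to 0.98) and Hrh1 (-0.36 to 0.24) include it.

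Of the receptor genes, 1 lay above the background range on every array and differed, and 3 were at or near background. Hrh2, the H2 receptor that raises cyclic AMP, read 4.75, 4.64 and 5.17 in Gr1lo and 5.93, 6.75 and 7.30 in Gr1hi. All 3 Gr1hi arrays lay above all 3 Gr1lo arrays, with a gap of 0.76. The mean rose from 4.85 ± 0.28 to 6.66 ± 0.69, a difference of 1.81 (SE 0.32, limma adjusted p = 9.91e-04), or 3.51-fold with an interval of 2.11 to 5.82. This is the widest interval among the 4 called probe sets, and Hrh2 had the largest spread within Gr1hi among the 12 probe sets. Replicate 3 was the highest array of each group for Hrh2, whereas it was the lowest of each group for Hdc. Without both replicate 3 arrays the Hrh2 difference was 1.65 (limma adjusted p = 0.004), with adjusted p from 6.18e-05 to 0.0094 over all alternatives.

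Hrh1, the H1 receptor, had probe sets on either side of the filter. Probe set 1438494_at read 3.22, 2.78 and 3.06 in Gr1lo and 2.87, 3.09 and 2.94 in Gr1hi. The arrays of the groups were interleaved and all lay inside the range of the genes of tissues outside blood. The difference was -0.06 (SE 0.13, limma adjusted p = 0.73), with a 95% interval of 0.78 to 1.18-fold. The other probe set, 1419210_at, lay between 1.97 and 2.31 on the 6 arrays, below the lowest value of the Trpn controls (2.21) on 5 of them.

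Hrh3 and Hrh4, receptors that lower cyclic AMP, were within the background on every array. Hrh3 lay between 2.25 and 2.49, and Hrh4, which is known from leukocytes, between 2.05 and 2.44. Their group means were 2.45 and 2.36 for Hrh3, and 2.23 and 2.33 for Hrh4, in Gr1lo and Gr1hi. At this background a low transcript level cannot be told from none, so no difference is given.

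Slc18a2, the vesicular transporter that fills granules with histamine, was low but above the Trpn controls on all 6 arrays. It read 4.29, 4.43 and 3.89 in Gr1lo and 4.77, 4.96 and 4.26 in Gr1hi. The groups overlapped, because Gr1hi replicate 3 lay below Gr1lo replicates 1 and 2, and the lowest array was inside the range of the genes of tissues outside blood. The difference was 0.46 (SE 0.23, limma adjusted p = 0.11), and its interval reached from 0.96-fold to 1.97-fold. The test was passed without Gr1hi replicate 3 (difference 0.66, adjusted p = 0.035), with a factor for the replicate 3 arrays (adjusted p = 0.042), with repeated quantile normalization (0.66, adjusted p = 0.036) and with arrays centred on the median of kept probe sets (0.78, adjusted p = 0.012). Without both replicate 3 arrays the difference was 0.51 (limma adjusted p = 0.094), and over all alternatives the adjusted p ran from 0.012 to 1.

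The genes of the remaining routes of removal did not pass the filter. Aoc1, the diamine oxidase, lay between 2.36 and 2.61, Maob, which oxidizes the methylated product, between 1.83 and 2.13, and Slc22a2, a carrier best known from kidney, between 1.51 and 1.87. Counted without regard to level, 6 of the 12 probe sets had all Gr1hi arrays above all Gr1lo arrays and 0 had the reverse, beside 26.5% and 23.1% of the 34945 probe sets with 1 symbol. Outside the 4 called probe sets this held for Aoc1 and for Hrh1 1419210_at, whose groups were 0.022 and 0.078 apart, both at background. Tested with no filter, none of the 6 probe sets below the filter passed limma (adjusted p from 0.11 to 0.53), and 0 of them had an unadjusted p under 0.05.

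The balance of directions depends on scaling, which was checked for each count of genes. On the deposited scale 5947 probe sets were called higher and 6804 lower, with a median difference of 0.04. Centred on the median of kept probe sets the counts were 11648 and 5076 (median 0.36), and centred on the hybridization controls 3451 and 8292 (median -0.24). Hdc, Hnmt and Hrh2 were called higher under each of these scalings.

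Markers of other cells that make histamine moved in both directions. Of 16 basophil and mast cell markers 10 were tested, with 1 called higher (Mitf) and 2 lower (Ms4a2 and Kit) on the deposited scale. With arrays centred on the median of all kept probe sets these counts were 6 and 2, and without both replicate 3 arrays 2 and 2. Over all genes 24.5% were called higher and 31.9% lower, counted over 12732 genes with 1 probe set each. Mitf, a transcription factor of the mast cell lineage that other myeloid cells also use, read 5.03, 5.03 and 4.83 in Gr1lo and 7.26, 6.94 and 7.49 in Gr1hi. The groups did not overlap, and Mitf rose by 2.27 (limma adjusted p = 8.75e-06). The log2 of the list's summed linear values ranged from 9.21 to 9.38 in Gr1lo and from 8.28 to 9.39 in Gr1hi. Mcpt8, a basophil protease, read 5.06, 5.47 and 7.44 in Gr1lo and 5.13, 3.13 and 7.74 in Gr1hi. It was highest on the replicate 3 arrays of both groups, on which Hdc was lowest, and the groups overlapped (difference -0.66, limma adjusted p = 0.61). Cpa3, the mast cell carboxypeptidase, was likewise highest on the replicate 3 arrays of both groups, with 3.78 and 5.02 there and at most 3.44 on the others. It was not called with all 6 arrays on the deposited scale. It was called higher without those 2 (difference 0.69) and, with all 6, centred on the median of kept probe sets (difference 1.19). Ms4a2, a chain of the IgE receptor, read 5.24, 6.08 and 6.01 in Gr1lo and 4.45, 3.46 and 4.50 in Gr1hi, so that it fell by 1.64 (limma adjusted p = 0.0019). Kit, the stem cell factor receptor, read 8.69, 8.42 and 8.12 in Gr1lo and 6.61, 6.03 and 6.77 in Gr1hi, and fell by 1.94 (limma adjusted p = 7.00e-05). On each Gr1lo array Kit was the highest of this list, so it weighs most in the list's sum there. Which cells carried Kit in these bulk samples was not tested. Fcer1a, the binding chain of the IgE receptor, and the mast cell protease genes Cma1 and Mcpt4 did not pass the filter. Fcer1a was, like Mcpt8 and Cpa3, highest on the replicate 3 array of each group, with 2.87 and 3.88 there and at most 2.34 on the others. Of the eosinophil markers, 2 of 7 were tested (Siglecf and Prg2) and 0 called on the deposited scale. Centred on the median of kept probe sets, 1 was called higher (Prg2). Siglecf was called lower when centred on the hybridization controls and without both replicate 3 arrays. Siglecf lay between 8.06 and 8.69 on the 6 arrays and Prg2 between 3.51 and 5.55, while 4 eosinophil markers lay at or below the Trpn level on all arrays.

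**Figure D3:**
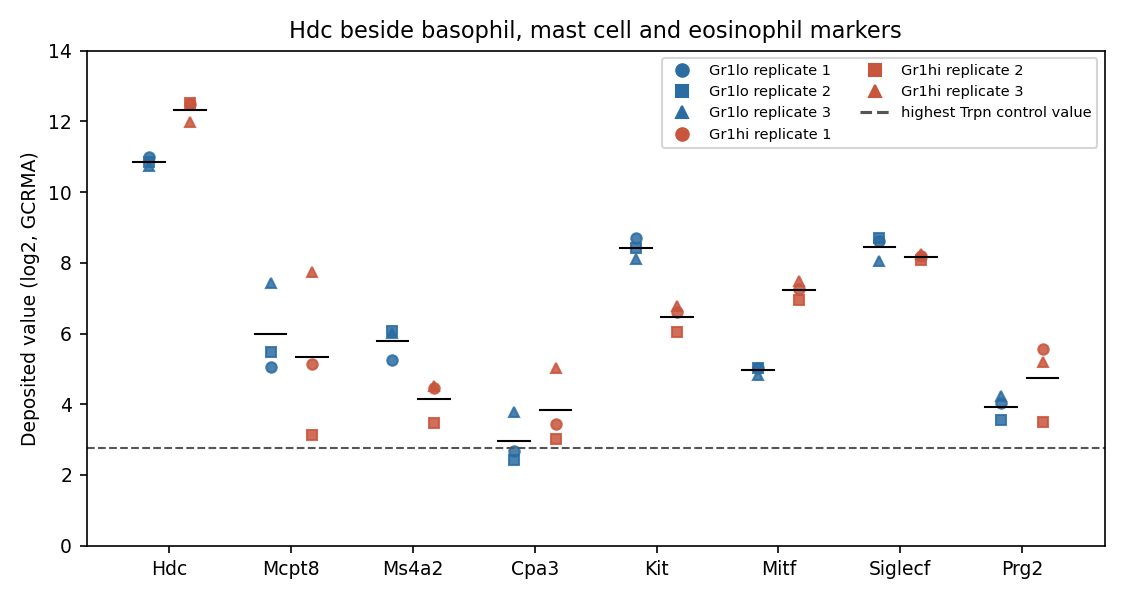
Deposited log2 value (vertical axis) of Hdc (probe set 1454713_s_at), of the basophil and mast cell markers Mcpt8, Ms4a2, Cpa3, Kit and Mitf and of the eosinophil markers Siglecf and Prg2 on each array; blue marks Gr1lo, red Gr1hi, shapes the replicate number, bars the group means (n = 3) and the dashed line the highest Trpn value (2.77). Mcpt8 and Cpa3 are highest on the replicate 3 arrays (triangles), where Hdc is lowest within each group, and Mitf is higher on all Gr1hi arrays than on any Gr1lo array.

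Of 7 tested monocyte and macrophage markers 3 rose (Csf1r, Cd68 and Adgre1), 1 fell (F13a1) and 3 were not called (Ccr2, Ms4a6c and Cx3cr1), beside the same 24.5% and 31.9% of all genes. Median centring of the kept probe sets gave 4 and 0, and the counts stood at 3 and 1 centred on the hybridization controls or without both replicate 3 arrays. Csf1r, the receptor for macrophage colony-stimulating factor, rose by 4.01, Cd68, a lysosomal glycoprotein, by 4.42 and Adgre1, an adhesion receptor, by 2.99, whereas F13a1, a coagulation factor subunit, fell by 0.98. Ccr2, the chemokine receptor of inflammatory monocytes, read 4.20, 3.98 and 6.07 in Gr1lo and 4.91, 4.19 and 7.29 in Gr1hi. Ccr2, Ms4a6c and F13a1 were, like Mcpt8 and Cpa3, highest on the replicate 3 array of each group. The log2 of the list's sum ranged from 9.96 to 10.96 in Gr1lo and from 12.14 to 12.46 in Gr1hi, where Csf1r alone read 11.69 to 11.84, so that this sum mostly follows that gene. The part of these cells in the rise of the histamine genes was not tested. Of 11 tested neutrophil lineage markers 3 rose (Csf3r, Cxcr2 and Itgam) and 2 fell (Mpo and Elane) on the deposited scale. Over all genes the shares on that scale were again 24.5% and 31.9%. The counts of these markers were 9 and 2 centred on the median of kept probe sets and 3 and 2 centred on the hybridization controls. Without both replicate 3 arrays they were 5 and 2.

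Genes that supply or use histidine, the substrate of Hdc, moved in both directions. The tested vitamin B6 genes Pdxk and Pdxp were not called on the deposited scale. Of 11 tested genes of the supply or use of histidine and vitamin B6, 3 rose and 3 fell, beside 24.5% and 31.9% of all genes. Carns1 and Hal among the 3 that rose, and Hars among the 3 that fell, use histidine, so the counts do not describe its supply alone. These counts were 5 and 2 centred on the median of kept probe sets and 3 and 4 centred on the hybridization controls. Without both replicate 3 arrays they were 4 and 3. The median difference of the list was 0.13 against 0.03 over the 12732 genes. Slc15a3, a peptide and histidine transporter of endolysosomes, rose by 6.51, from 5.51, 3.75 and 4.70 in Gr1lo to 11.16, 11.21 and 11.13 in Gr1hi. Carns1, which joins histidine to beta-alanine to make carnosine, read 4.94, 3.81 and 5.22 in Gr1lo and 9.47, 8.99 and 9.20 in Gr1hi. The limma adjusted p was 6.19e-07 for Slc15a3 and 3.05e-06 for Carns1. Hal, histidase, which directs histidine to breakdown, was called higher, with group means of 3.21 and 4.19, both inside the range of the genes of tissues outside blood, although Gr1hi replicates 2 and 3 (4.23 and 4.47) lay just above it. Hars, which charges tRNA with histidine, fell by 1.90, and Slc7a5, a plasma membrane carrier of large neutral amino acids that was singled out after its values were seen, fell by 1.29. Ddc, the decarboxylase most like Hdc in chemistry, did not pass the filter.

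Other genes of amine transport and breakdown mostly did not pass the filter. Of 14 genes 6 were tested, of which 3 rose and 1 fell, beside 24.5% and 31.9% of all genes. These counts were 4 and 1 centred on the median of kept probe sets and 2 and 2 on the hybridization controls. Without both replicate 3 arrays they were 3 and 1. Aldh9a1, an aldehyde dehydrogenase of amine-derived aldehydes, fell by 2.91, from 11.08 ± 0.20 to 8.16 ± 0.15 (SD, n = 3 per group). Aldh3a2 and the polyamine acetyltransferase gene Sat1 rose by 1.32 and 1.22. Aldh2, which can oxidize the aldehydes that follow the amine oxidases, rose by 0.27 on the deposited scale but differed by -0.0053 centred on the hybridization controls. Maoa, the companion of Maob, stood at 3.33 and 3.09 and was not called (limma adjusted p = 0.099).

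Downstream of the H2 receptor, of 20 tested genes of Gs and cyclic AMP signalling 5 rose and 6 fell (7 and 5 centred on the median of kept probe sets, 2 and 10 on the hybridization controls, 5 and 5 without both replicate 3 arrays), with a median of -0.11, beside 24.5% and 31.9% of all genes. Pde4b, a phosphodiesterase that degrades cyclic AMP, read 6.66, 5.85 and 5.48 in Gr1lo and 9.53, 9.08 and 10.22 in Gr1hi. Arrb1, an arrestin that uncouples receptors, rose by 1.51. Prkar2a, a regulatory subunit of protein kinase A, read 10.09, 10.15 and 10.13 in Gr1lo and 7.83, 7.71 and 6.91 in Gr1hi, and the phosphodiesterase gene Pde7a fell by 2.23. Gnas, the Gs alpha subunit itself, and the adenylyl cyclase gene Adcy7 were singled out after their values were seen; they fell by 0.65 and 1.06 and were called lower under each scaling tried.

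For the pathways of the other receptors, whose own transcripts were at or near background, the counts were 5 higher and 3 lower of 11 tested Gq genes (5 and 1, and 3 and 3, under the 2 centrings) and 6 higher and 0 lower of 7 tested Gi genes (7 and 0, and 4 and 0). Without both replicate 3 arrays they were 5 and 2 for Gq and 6 and 0 for Gi. Over all genes 24.5% were called higher and 31.9% lower on the deposited scale. The Gq and Gi genes serve many receptors besides those of histamine. In the Gq list Prkcd rose by 1.39, the calcium channel gene Itpr2 by 1.63, Plcb3 by 0.99 and Gnaq by 0.65, the last not called when centred on the hybridization controls. The 3 lower Gq genes, singled out after their values were seen, were Gna11, a companion of Gnaq (-1.05), and the phospholipase C genes Plcb1 (-0.79) and Plcb4 (-0.67). Gna11 was called lower under each scaling tried. Plcb1 was not called when centred on the median of kept probe sets, nor was Plcb4, which was also not called with repeated quantile normalization or without both replicate 3 arrays. In the Gi list Gng2, a G protein gamma subunit, read 6.27, 5.60 and 6.65 in Gr1lo and 10.51, 10.33 and 10.27 in Gr1hi. Pik3r5 and Pik3cg, subunits of the phosphoinositide kinase driven by G protein beta-gamma, rose by 2.33 and 1.71, and Gnai2 rose by 0.85. The Gi list had a median of 0.85, against 0.03 over the 12732 genes.

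**Figure D4:**
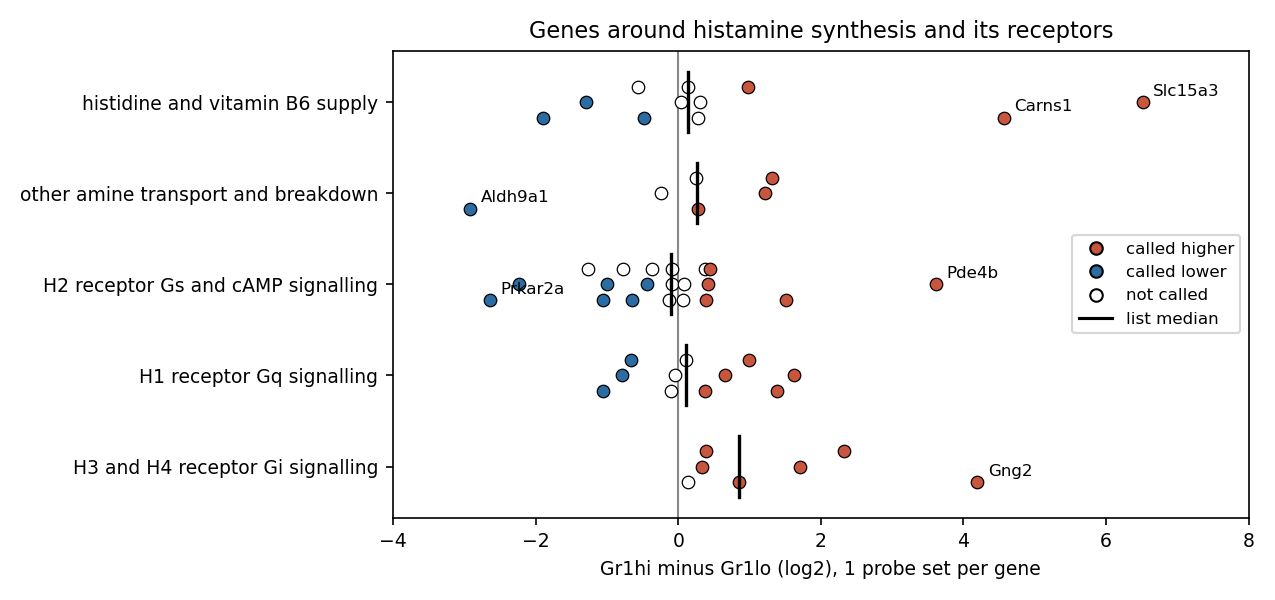
Difference Gr1hi minus Gr1lo (horizontal axis, log2) of each tested gene in 5 lists of related genes, 1 probe set per gene; red points were called higher, blue points lower and white points were not called, and the black bar is the list median. The medians run from -0.11 (Gs and cyclic AMP) to 0.85 (Gi), and Slc15a3, Carns1, Gng2 and Pde4b stand to the right with differences over 3.6.

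Genes with the profile most like each member that passed the filter were found by the Euclidean distance between log2 profiles over the 6 arrays, after each profile's own mean was subtracted, among 11904 genes. Nearest to Hdc 1451796_s_at were Klhdc4 (distance 0.22), Zfp276 (0.31) and Il4ra, the interleukin-4 receptor alpha chain (0.32). Nearest to Hdc 1454713_s_at were Txnl4b (0.17), Cytip (0.25) and Krt7 (0.26). The 2 Hdc probe sets thus had different neighbours. Hnmt was nearest to Dnase2a (0.25), Camsap1 (0.26) and Ggps1 (0.26). Hrh2 was nearest to Cd274, which encodes PD-L1 (0.42), Zeb2 (0.46) and Rabggta (0.48). Slc18a2 was nearest to Snap29 (0.23), Crkl (0.28) and Kat8 (0.30), and Hrh1 1438494_at to Atp6v1e2 (0.098), Orm2 (0.11) and P2rx3 (0.11), at differences close to 0. The distances take no account of level, and some of the named genes were near background in Gr1lo. Among them were Cd274, with group means of 2.57 in Gr1lo and 4.22 in Gr1hi, and Krt7, with 2.84 and 4.37. The distances describe 6 arrays in 2 groups, so genes with a like group difference come out near each other.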

How the data were processed

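Total RNA of 6 sorted samples (100 ng each) was hybridized to Affymetrix arrays, per the labels' protocols. The authors deposited 1 log2 value per probe set and array; the submitters' processing notes name GCRMA, without a version or settings. The table held 45101 probe sets, from 0.87 to 15.01; 34945 had 1 gene symbol in the platform annotation, 932 several, 9160 none, and 64 were controls. Probe sets above an array's 40th percentile on at least 3 of 6 arrays were kept (22695). Each was tested on its own with limma 3.58.1 under R 4.3.3 (group means by lmFit; trended eBayes; two-sided; Benjamini-Hochberg over all kept probe sets; threshold 0.05), after the fit was tested on simulated data. Related genes and markers were represented by the probe set with the highest mean. Up to 4 genes with the smallest p were named per list of related genes, and 3 nearest genes per member that passed the filter. Members and lists were chosen with earlier results of these data known. Promoters were read and figures drawn in Python 3.11.15 (pandas 2.3.3, matplotlib 3.10.9). Alternatives covered filtering, probe set choice, variance model, scaling, array weights, the replicate number, the replicate 3 arrays, the threshold and each array left out. The number of arrays limits the precision.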

Additional observations from a re-analysis of the deposited data

How the results depend on the processing

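Hdc (both probe sets) and Hrh2 were called higher under every alternative in which they were tested, and Hnmt under all but the test against a 1.5-fold change. The number of member probe sets called higher stayed between 3 and 5, and none was called lower by limma. The uncalled difference of Hrh1 1438494_at changed sign without Gr1lo replicate 1 (0.042; -0.18 to 0.042 over the arrays left out in turn) and with arrays centred on the median of kept probe sets (0.26); the latter moves all values by construction. Of the 12751 called probe sets, 46.6% were higher, against 69.7% with that centring and 29.4% centred on the hybridization controls. Probe sets called higher over the whole array went from 5947 to 11648 and 3451 under these centrings, to 3126 and 3287 with 1 value per gene (highest mean or mean of probe sets), and to 2530 against a 1.5-fold change; those called lower went from 6804 to 4051, 3955 and 3803 under the last 3, where fewer values or a stricter null were tested. Related genes called higher numbered 22, and 14 centred on the hybridization controls. The labels give both groups replicate numbers. Deviations of same-numbered arrays correlated at 0.16, 0.020 and 0.13, and those of differently numbered arrays at -0.16 to 0.026. Replicates 1 and 3 of both groups thus correlated best with their own number, and replicate 2 of neither group did. Xist was high on both replicate 3 arrays only. The main fit did not take the numbers as pairs, and whether same-numbered arrays share a source was not tested. With the replicate block 5808 were higher and 6741 lower, and 4 member probe sets were called. A change of pseudocount did not apply to log2 values. Signal over background limits Hrh1, Hrh3, Hrh4, Aoc1, Slc22a2 and Maob.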
